A study of Mus musculus with 6 samples.

Results

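Ribosome biogenesis factors are the proteins that make ribosomal RNA, modify and cut it, and assemble it with ribosomal proteins into the small (40S) and large (60S) subunits. The 44 factors described here were chosen by gene symbol among the 32285 genes listed for each library, and each of the 44 was found and held at least 1 UMI (unique molecular identifier, 1 captured transcript) in every library. Single cells were isolated from the dorsal skin of wildtype FVB males aged p55-57, an age at which the hair coat rests in telogen, after the skin was shaved and waxed so that hair would grow again. There was 1 library for each time after waxing (0h, 4h, 16h, 2d, 4d and 6d), each a mix of equal cell numbers from 2 mice, so the cells of the 2 mice cannot be told apart and a difference between 2 time points has no replicate check. The groups share strain, sex and genotype and differ by label only in the time between waxing and harvest, and since each time is its own library, time and library cannot be told apart. The 0h library is the reference for every fold change below.

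Ribosomal RNA is transcribed by RNA polymerase I in the nucleolus, where small nucleolar RNPs of the box C/D and box H/ACA kinds guide its 2′-O-methylation and pseudouridylation. The small subunit (SSU) processome folds and cuts the early 40S precursor, late 40S factors finish it, and a separate set of factors, among them the PeBoW complex of Pes1, Bop1 and Wdr12, matures the 60S precursor. Cells that leave quiescence and grow raise this output, and hair follicle stem cells of the telogen outer bulge are a known case of adult stem cells that rest for weeks and then re-enter growth.

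The libraries held 72634390 to 112370376 UMIs in 7307 to 13878 barcodes, and 50502 cells remained after the filters. Cells were grouped by expression and named from marker lists, and 3 classes carry most of the comparisons: outer bulge-like (OB) cells, basal cells of the upper hair follicle (uHF) and basal cells of the interfollicular epidermis (IFE). Every marker of these 3 classes was above the level over all cells in 6 of 6 libraries. The classes were named from these same markers, so this is no independent check. CPM is counts per 1e+06 UMIs of the class in that library. In OB cells the stem cell markers Cd34 and Krt24 went from 646 and 759 CPM at 0h to 161 and 145 at 4h. Of the other OB markers, Lhx2, Lgr5 and Postn were also lower at 4h. Nfatc1 was at 112 CPM at 0h and 102 at 4h, and Sox9 was higher, at 544 and 736. In uHF cells Sostdc1 went from 959 CPM at 0h to 82.2 at 4h, and Lrig1 from 76.4 to 29.3. Apoe was also lower there at 4h, while Plet1, Fst and Aqp3 were higher. Cluster 18 held 962 uHF cells at 4h and had 3 of 6 uHF markers up. Its leading genes held 1 uHF marker and 1 marker of another class, so the uHF name is less certain at 4h. OB cells numbered 387, 619, 627, 410, 1867 and 1504 from 0h to 6d, uHF cells 956 to 1350, and IFE basal cells 2973, 3321, 3120, 3054, 1958 and 2018. The 4h library stood apart from the others: its uHF and IFE basal cells lay almost entirely in 2 clusters that held few cells of any other library, whereas OB cells of 0h, 4h and 16h lay mostly in 1 shared cluster and those of 2d, 4d and 6d mostly in another. Of 60599 distinct barcodes, 430 occurred in more than 1 library. None of the 44 factors was among the genes used for clustering.

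Over all cells the 44 factors together took 0.348% of the UMIs at 0h, 1.02% after 4h, 0.433% after 16h, 0.328% after 2d, 0.451% after 4d and 0.349% after 6d. The 4h share was therefore the highest and the 2d share the lowest, and the 6d share was close to that of 0h. A sum over all cells cannot tell a change of level within cells from a change in which cells were captured. These shares are over the analysed cells. In CPM the same sums are 3483 at 0h, 10202 after 4h, 4331 after 16h, 3281 after 2d, 4512 after 4d and 3492 after 6d. At 4h, 42 of the 44 factors were at least 2-fold above 0h, against 15.9% of all genes tested (mean level of at least 5 CPM over the 6 libraries). At 16h it was 8 factors, against 6.73% of all genes.

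Separated by class, the summed factors in OB cells stood at 2836 CPM at 0h, 9109.7 after 4h, 6457 after 16h, 6161 after 2d, 5347 after 4d and 3705 after 6d. The 4h level was 3.21-fold (3.12 to 3.3) the 0h level, where the range in parentheses is here and below the exact 95% interval of the ratio and covers counting error only. The OB ratio was 2.28-fold (2.22 to 2.34) at 16h, 2.17-fold (2.11 to 2.24) at 2d and 1.31-fold (1.27 to 1.34) at 6d. Most OB cells lay in cluster 13 at 0h, 318 of 387, but in cluster 2 at 2d and 6d, 268 of 410 and 1281 of 1504. Cluster 2 held 15 cells at 0h, so the 2d and 6d ratios compare mostly different clusters. The part of this in the ratios was not tested. In uHF cells the sum was 4852 CPM at 0h, 10522 after 4h, 5798 after 16h, 3996 after 2d, 4541 after 4d and 4902 after 6d, which gave 2.17-fold (2.14 to 2.2) at 4h and 1.2-fold (1.18 to 1.21) at 16h. In IFE basal cells it was 3596 CPM at 0h, 11912 after 4h, 4099 after 16h, 3265 after 2d, 3261 after 4d and 3541 after 6d, or 3.31-fold (3.29 to 3.34) at 4h and 1.14-fold (1.13 to 1.15) at 16h. All 3 epithelial classes were thus highest at 4h, while at 16h and 2d the OB sum was above 2-fold and the IFE basal sum was near or below its 0h level. OB cells were the lowest of the 3 at 0h and at 4h, and stood above IFE basal cells in the other 4 libraries.

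**Figure D1:**
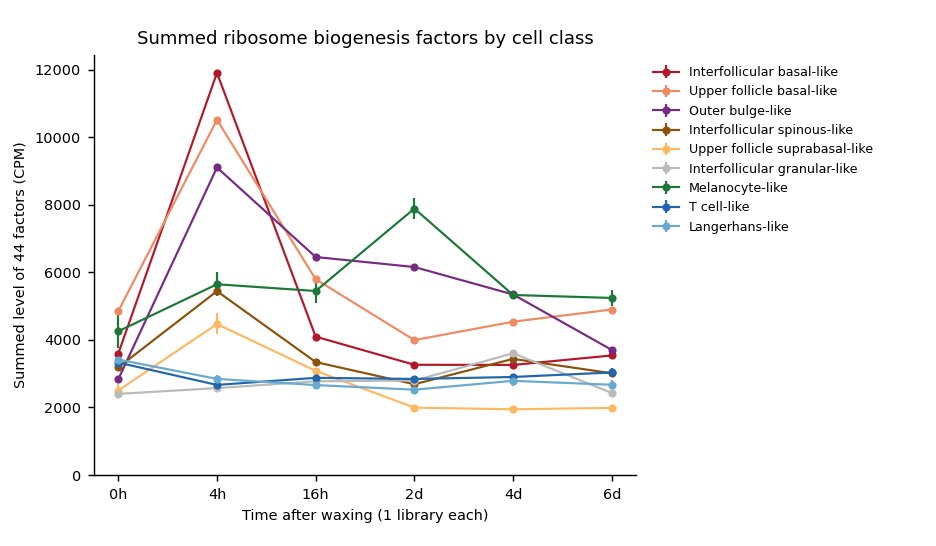
Summed level of the 44 factors (CPM) in each library for 9 cell classes (OB, uHF and IFE basal cells, spinous, granular and upper follicle suprabasal cells, melanocytes, T cells and Langerhans cells), with exact Poisson 95% intervals that cover counting error only; each point is 1 library. The OB line goes from 2836 CPM at 0h to 9110 at 4h and is at 6457 at 16h, the IFE basal line returns from 11912 at 4h to 4099 at 16h, and the T cell line goes from 3330 to 2668.

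Factor by factor, 43 of 44 in OB cells were at least 2-fold higher at 4h than at 0h, against 16% of the 9749 genes tested in that class, and the exception, Npm1, was at 1.7-fold. At 16h the count was 36 of 44, again against 16% of all genes. The median log2 ratio of the factors was 2.35 at 4h and 1.67 at 16h, against -0.03 and 0.20 over all genes tested. The interval of the ratio lay above 1 for 44 of 44 factors at both times. Of the 9749 genes tested, 4772 had a ratio above 1 at 4h and 5872 at 16h. The share of all genes with an interval above 1 is not given. OB levels were highest at 4h for 42 factors, lowest at 0h for 40, and above 0h at 6d for 40, also without the shares of all genes.

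**Figure D2:**
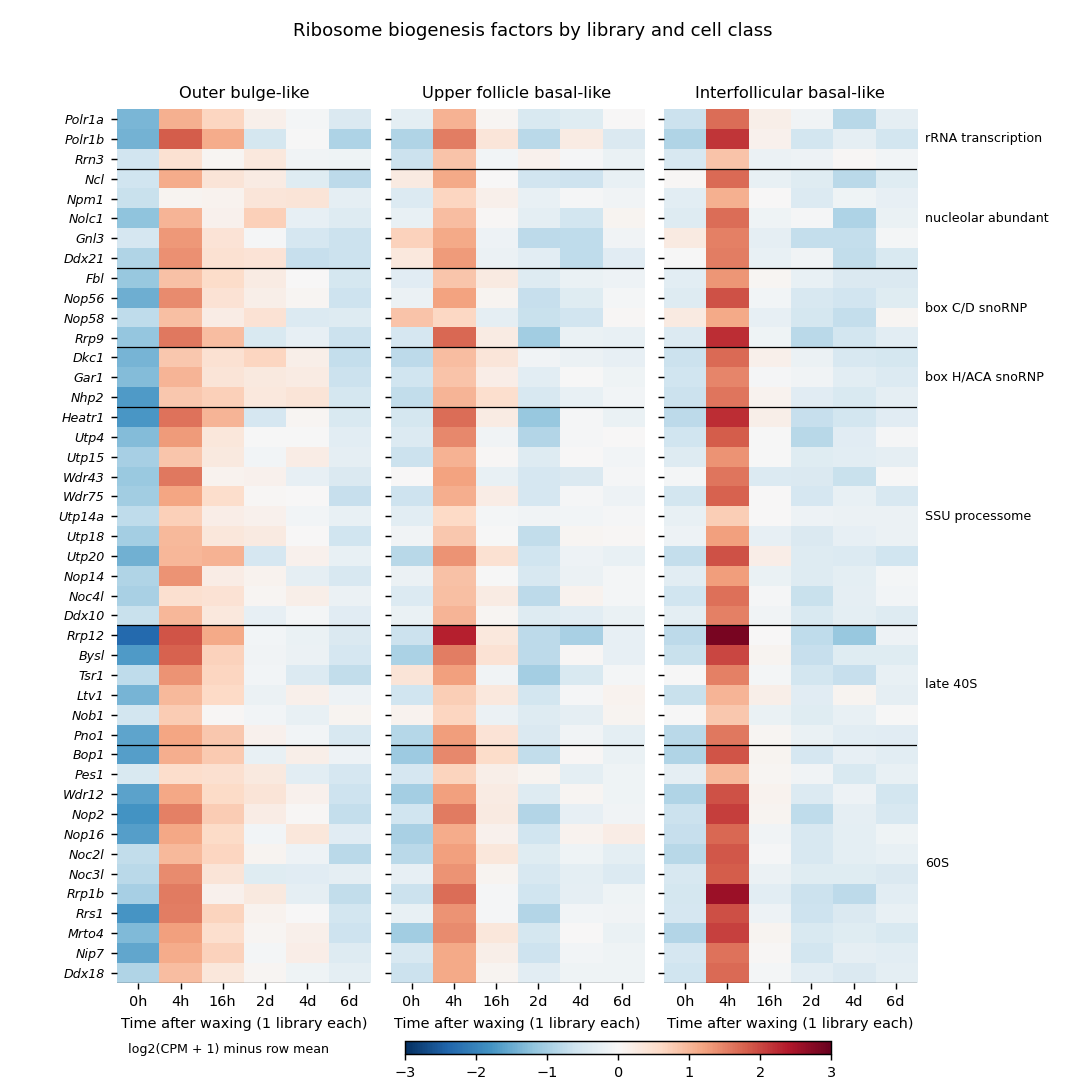
Heat map of log2(CPM + 1) of the 44 factors minus the mean of the row, in the 6 libraries (columns) of OB, uHF and IFE basal cells (panels), with factors grouped by role; red is above and blue below the factor's own mean within the class. The 4h column is the darkest red in all 3 panels, the 16h column is still red in OB cells and near 0 in IFE basal cells, and the 0h column is bluest in OB cells.

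RNA polymerase I and its initiation factor were measured as Polr1a and Polr1b, the largest catalytic subunits, and Rrn3 (TIF-IA), which brings the polymerase to the promoter. Polr1b (chr2:129100995-129126594, plus strand; this and the later gene positions are from GENCODE on GRCm38) was at 2.76 CPM at 0h, 34.4 after 4h, 20.7 after 16h, 5.97 after 2d, 9.0 after 4d and 4.29 after 6d in OB cells. It rested on 6 UMIs at 0h and 98 at 4h, which gave 12.5-fold (5.52 to 34.8) at 4h and 7.5-fold (3.32 to 20.9) at 16h. Rrn3 (chr16:13780708-13814839, plus strand) moved least of the 3, with 13.8 CPM at 0h, 29.1 after 4h, 22 after 16h, 26.4 after 2d, 19.5 after 4d and 19.4 after 6d, or 2.11-fold (1.37 to 3.32) at 4h. The 4h and 16h libraries were the 2 highest for Polr1b, whereas for Rrn3 the 2d value lay between them. As a group, the 3 genes were 4.45-fold at 4h and 3.1-fold at 16h in OB cells, 3.39-fold and 1.61-fold in uHF cells, and 4.76-fold and 1.61-fold in IFE basal cells. Polr1b itself was at 6.06 CPM at 0h, 37.7 after 4h and 15.9 after 16h in uHF cells and at 4.34 CPM at 0h, 42.8 after 4h and 9.86 after 16h in IFE basal cells.

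The abundant nucleolar proteins were nucleolin (Ncl), nucleophosmin (Npm1), the snoRNP chaperone Nolc1, nucleostemin (Gnl3) and the RNA helicase Ddx21. Ncl (chr1:86344719-86359400, minus strand) stood at 657 CPM at 0h, 2154 after 4h, 1288 after 16h, 1184 after 2d, 768 after 4d and 573 after 6d in OB cells, which is 3.28-fold (3.09 to 3.47) at 4h and 1.96-fold (1.85 to 2.08) at 16h. By 6d it was below its 0h level. In uHF cells Ncl was at 1274 CPM at 0h, 2332 after 4h, 1059 after 16h, 706 after 2d, 684 after 4d and 907 after 6d, and in IFE basal cells at 812 CPM at 0h, 2563 after 4h, 678 after 16h, 616 after 2d, 452 after 4d and 617 after 6d. Both classes were higher only at 4h, 1.83-fold (1.79 to 1.88) and 3.16-fold (3.11 to 3.2), and were below 0h from 16h on, at 0.831-fold (0.809 to 0.854) and 0.836-fold (0.82 to 0.851) at 16h. Counted as mean UMIs per cell instead of CPM, the 16h values of Ncl in these 2 classes were slightly above 0h, with log2 ratios of 0.28 and 0.09, so the direction at 16h depends on the scale.

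Npm1 (chr11:33152287-33163206, minus strand), a histone and ribosome chaperone with processed pseudogenes that can take some of its reads, was at 1139 CPM at 0h, 1936 after 4h, 1962 after 16h, 2350.0 after 2d, 2362 after 4d and 1508 after 6d in OB cells. It moved least of the 5 and was the only factor whose OB level was highest at 4d. The ratio was 1.7-fold (1.62 to 1.78) at 4h. Ddx21 (chr10:62580251-62602281, minus strand) moved most, with 45.6 CPM at 0h, 224 after 4h, 118 after 16h, 115 after 2d, 53.1 after 4d and 54.3 after 6d, or 4.91-fold (3.96 to 6.13) at 4h and 2.6-fold (2.1 to 3.25) at 16h. Its 16h value was below 0h in uHF cells, 127 CPM at 0h, 248 after 4h and 90.6 after 16h, and in IFE basal cells, 97 CPM at 0h, 288 after 4h and 83.3 after 16h. The group sum was 2.45-fold at 4h in OB cells, 1.92-fold in uHF cells and 2.86-fold in IFE basal cells, and 1.85-fold, 1.09-fold and 1.05-fold at 16h. Ncl and Npm1 had the most UMIs of the 44, and without them the OB sum was 4.83-fold at 4h and 3.08-fold at 16h.

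Of the box C/D proteins, Fbl is the methyltransferase, Nop56 and Nop58 form its core, and Rrp9 belongs to the U3 particle. Nop56 (chr2:130274430-130279313, plus strand) was at 41 CPM at 0h, 310.2 after 4h, 156 after 16h, 131 after 2d, 121 after 4d and 74.6 after 6d in OB cells, 7.57-fold (6.08 to 9.53) at 4h and 3.8-fold (3.05 to 4.8) at 16h. Its paralog in the same particle, Nop58 (chr1:59684971-59719044, plus strand), was at 118 CPM at 0h, 378 after 4h, 235 after 16h, 273 after 2d, 153 after 4d and 156 after 6d, only 3.19-fold (2.78 to 3.67) at 4h. The pair parted further outside the bulge: in uHF cells Nop56 was at 116 CPM at 0h, 307 after 4h and 141 after 16h and Nop58 at 392 CPM at 0h, 332 after 4h and 179 after 16h. Nop58 was the only factor below its 0h level at 4h in any of the 3 classes, at 0.846-fold (0.801 to 0.893) in uHF cells, and at 16h it was at 0.456-fold (0.43 to 0.483) there and 0.696-fold (0.669 to 0.724) in IFE basal cells.

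The box H/ACA proteins were close to each other in OB cells at 4h. Dkc1 (dyskerin, the pseudouridine synthase), Gar1 and Nhp2 were 4.69- to 5.77-fold at 4h in OB cells. Nhp2 (chr11:51619735-51623714, plus strand) was at 54.3 CPM at 0h, 313 after 4h, 296 after 16h, 223 after 2d, 235 after 4d and 125 after 6d, with 5.77-fold (4.76 to 7.05) at 4h and 5.45-fold (4.52 to 6.64) at 16h. The 4h and 16h levels of Nhp2 lay close together, and the later libraries stayed above 2-fold. Gar1 (chr3:129824912-129831396, minus strand) was at 31.8 CPM at 0h, 163 after 4h, 106 after 16h, 98.7 after 2d, 96 after 4d and 51 after 6d. In uHF and IFE basal cells the group sum was 3.24-fold and 4.75-fold at 4h, and 2.21-fold and 1.67-fold at 16h.

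The SSU processome gave 11 of the factors, all of them at least 2-fold above 0h at 4h in OB cells and 10 of them at 16h. Heatr1 (chr13:12395027-12440289, plus strand), the homologue of yeast Utp10 in the subcomplex that links the processome to rRNA transcription, was at 4.14 CPM at 0h, 52.3 after 4h, 33.5 after 16h, 11 after 2d, 16.9 after 4d and 11.4 after 6d in OB cells. The 4h value rested on 149 UMIs and the 0h value on 9, which gave 12.6-fold (6.47 to 28.1) at 4h and 8.09-fold (4.16 to 18) at 16h. In uHF cells Heatr1 was at 13.7 CPM at 0h, 66.7 after 4h, 24.1 after 16h, 8.57 after 2d, 19.7 after 4d and 17.4 after 6d, 4.87-fold (3.93 to 6.07) at 4h. In IFE basal cells it was at 8.78 CPM at 0h, 76.7 after 4h, 18 after 16h, 9.36 after 2d, 10.5 after 4d and 12.2 after 6d, 8.73-fold (7.64 to 10) at 4h and 2.05-fold (1.76 to 2.39) at 16h. Heatr1 was thus highest at 4h in each class, and its 2d value in uHF cells was the lowest of that class. Utp14a (chrX:48256862-48282453, plus strand) moved least of the 11, with 33.6 CPM at 0h, 94.4 after 4h, 66.2 after 16h, 62.9 after 2d, 54.4 after 4d and 49.2 after 6d in OB cells, 2.81-fold (2.16 to 3.69) at 4h, and stayed under 2-fold at 4h in uHF and IFE basal cells.

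Late 40S maturation held the largest and the smallest OB ratio at 16h, those of Rrp12 and Nob1. Rrp12 (chr19:41862851-41896173, minus strand), which in yeast acts in export of the subunit precursors, was at 0.921 CPM at 0h, 34.7 after 4h, 20.1 after 16h, 8.17 after 2d, 7.46 after 4d and 6.15 after 6d in OB cells. Its 0h level came from 2 UMIs, so the ratio of 37.7-fold (10.2 to 316) at 4h has a wide interval. With 51 UMIs at 0h in uHF cells the ratio was 8.89-fold (6.64 to 12.1), and with 161 in IFE basal cells it was 14.3-fold (12.2 to 16.8), the largest of the 44 in each of those classes. Nob1 (chr8:107412486-107425051, minus strand), the endonuclease that makes the final 18S rRNA cut, was at 19.3 CPM at 0h, 49.8 after 4h, 29.7 after 16h, 27.3 after 2d, 24.8 after 4d and 30.5 after 6d in OB cells, 2.58-fold (1.82 to 3.73) at 4h. In uHF and IFE basal cells Nob1 was at 1.47-fold (1.26 to 1.7) and 1.79-fold (1.65 to 1.96) at 4h and at 0.821-fold (0.703 to 0.96) and 0.872-fold (0.792 to 0.96) at 16h. The group sum was 5.87-fold at 4h in OB cells, 2.91-fold in uHF cells and 4.16-fold in IFE basal cells.

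The 60S factors numbered 12, and each was at least 2-fold above 0h at 4h in all 3 classes. Nop2 (chr6:125131909-125144753, plus strand), a 28S rRNA methyltransferase, was at 5.98 CPM at 0h, 67.4 after 4h, 39.9 after 16h, 27 after 2d, 23.6 after 4d and 13.6 after 6d in OB cells, 11.3-fold (6.43 to 21.5) at 4h and 6.67-fold (3.81 to 12.8) at 16h. Pes1 (chr11:3963975-3980004, plus strand) was at 22.6 CPM at 0h, 46 after 4h, 44 after 16h, 38.7 after 2d, 25 after 4d and 21.9 after 6d, 2.04-fold (1.46 to 2.89) at 4h, whereas its partners in PeBoW, Bop1 and Wdr12, were at 7.42-fold (4.62 to 12.6) and 7.28-fold (4.96 to 11.1). The interval of Pes1 did not reach that of either partner. Bop1 and Wdr12, with Polr1b, were also the 3 factors at least 2-fold above 0h at 16h in all 3 classes. The share of all genes past 2-fold in all 3 classes is not given for either time. The 60S sum was 5.65-fold at 4h in OB cells, 4.02-fold in uHF cells and 5.96-fold in IFE basal cells, and 3.63-fold, 1.88-fold and 1.58-fold at 16h.

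**Figure D3:**
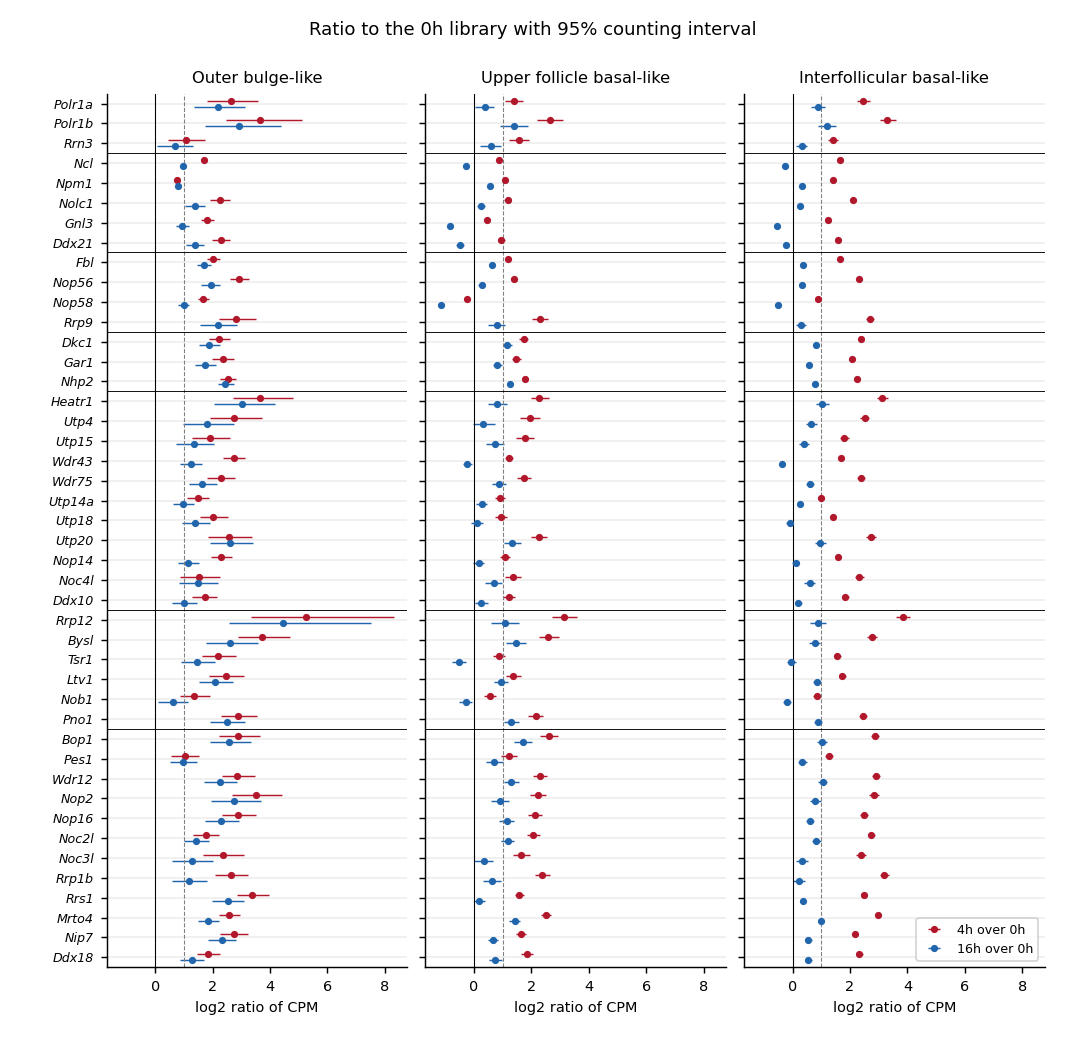
Log2 ratio of each of the 44 factors at 4h and at 16h against 0h in OB, uHF and IFE basal cells, with exact 95% intervals that cover counting error only; each point compares 2 libraries. The solid line is no difference and the dashed line 2-fold. All OB points lie above 0 at both times, whereas at 16h 7 points in uHF cells and 8 in IFE basal cells lie below 0.

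Outside the bulge the 4h difference was nearly as wide in its reach, and the 16h difference was not. In uHF cells 36 of 44 factors were at least 2-fold higher at 4h, against 18.9% of all genes, and 12 at 16h, against 17.3%. The 8 under 2-fold at 4h were Ddx21, Gnl3, Ncl, Nob1, Nop58, Tsr1, Utp14a and Utp18. In IFE basal cells 41 of 44 were at least 2-fold higher at 4h, against 16.7% of all genes, with Nob1, Nop58 and Utp14a as the exceptions. At 16h the IFE basal count was 4 (Bop1, Heatr1, Polr1b and Wdr12), against 4.44%. The median log2 ratio of the factors went from 1.61 at 4h to 0.68 at 16h in uHF cells and from 2.32 to 0.47 in IFE basal cells, with 0.33 and 0.20 over all genes at 16h. Counted as mean UMIs per cell, which is not divided by depth, 27 factors in uHF cells were at least 2-fold higher at 16h, against 43.7% of all genes on that scale, and 15 in IFE basal cells, against 15.8%. In all, 35 factors were at least 2-fold higher at 4h in each of the 3 classes. The share of all genes that were so in all 3 classes is not given.

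The values below 0h at 16h fell largely on the same genes. Ddx21, Gnl3, Ncl, Nob1, Nop58, Tsr1 and Wdr43 were below their 0h level in both uHF and IFE basal cells, and Utp18 in IFE basal cells as well. The ranges were 0.456 to 0.846 of 0h in uHF cells, with the interval below 1 for 7, and the interval lay below 1 for 6 of the 8 in IFE basal cells. The other factors were above 0h. This count depends on the scale: as mean UMIs per cell, only Gnl3 and Nop58 were below 0h in uHF cells, and Gnl3, Nop58 and Wdr43 in IFE basal cells, where 15.7% and 16.6% of all genes were. In the GRCm38 gene annotation 7 of the 44 factors carry small nucleolar RNA genes within their own bounds, on the same strand, as host genes whose introns give rise to snoRNAs: Ncl, Gnl3, Nop56, Nop58, Dkc1, Wdr43 and Tsr1. This division was made after the values were seen. Of these 7 hosts, 5 were below 0h at 16h in uHF cells and the same 5 in IFE basal cells, against 2 and 3 of the 37 other factors. As mean UMIs per cell 2 and 3 of the hosts and 0 of the others were below 0h. The median log2 ratio at 16h was -0.27 for the hosts and 0.73 for the others in uHF cells, and -0.26 and 0.57 in IFE basal cells. Among all genes tested that host snoRNA genes, 41.5% of 200 in uHF cells and 35.9% of 198 in IFE basal cells were below 0h, against 33.4% and 34.4% of all genes tested. In OB cells all 7 hosts were above 0h at 16h, with a median of 1.23 against 1.74 for the others.

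Since the 4h cells of uHF and IFE lay in clusters of their own, the ratio was also taken within the clusters that held at least 20 cells of both libraries. For OB cells this was 1 cluster with 318 cells at 0h and 609 at 4h, and the log2 ratio of the summed factors was 1.69. The uHF cluster had 81 and 33 cells and a log2 ratio of 1.26, with Heatr1 at 3.75 and Ncl at 1.17. The IFE basal cluster had 60 and 36 cells, and here the log2 ratio was 0.69 for the sum, 1.54 for Heatr1 and 0.67 for Ncl, against 1.73, 3.13 and 1.66 over the whole class. The higher 4h level was therefore present in each shared cluster and smaller in that of IFE basal cells.

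Immune cells in the same libraries did not show a higher sum. In T cells, 210 to 824 per library, the summed factors were at 3330.5 CPM at 0h, 2668 after 4h, 2878 after 16h, 2846 after 2d, 2904 after 4d and 3038 after 6d, 0.801-fold (0.754 to 0.852) at 4h. Here 10 of 43 factors tested were at least 2-fold higher at 4h, against 24.8% of all genes, and 7 were at least 2-fold lower, against 8.12%. Langerhans cells, the epidermal antigen-presenting cells, numbered 40 to 260 and were at 3420.1 CPM at 0h, 2847 after 4h, 2665 after 16h, 2528 after 2d, 2791 after 4d and 2673 after 6d, 0.832-fold (0.763 to 0.909) at 4h. Of 43 factors tested, 15 were at least 2-fold higher at 4h, against 25.6% of all genes, and 2 at least 2-fold lower, against 14.7%. The 4h levels of both immune classes were below 0h while those of the 3 basal classes were above it, a difference not tested. The median log2 ratio of the 43 factors tested at 4h nevertheless lay above 0, at 0.26 in T cells and 0.62 in Langerhans cells, against 0.35 and 0.16 over all genes, so the sum, in which Ncl and Npm1 weigh most, and the median differ in sign. The interval of the ratio lay below 1 for 8 factors and above 1 for 2 in T cells, and for 2 and 4 in Langerhans cells. Shares of all genes with such intervals are not given. None of the 5 abundant nucleolar proteins was above 0h at 4h in either class. T cells had median depths of 2020 to 2702 UMIs, so single factors rest on few UMIs there. When clustering was centred within libraries, only 19 cells at 0h and 49 at 4h were named T cells.

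Among named cells, suprabasal and pigment cells lay between. Spinous cells of the IFE were 1.71-fold (1.69 to 1.73) at 4h and granular cells, the last living layer, 1.07-fold (1.02 to 1.12). Suprabasal cells of the upper follicle were 1.79-fold (1.62 to 1.98), from 34 cells at 0h and 30 at 4h. Cluster 19, with 963 cells at 4h and a sum of 10680 CPM there, was left unnamed and is in none of these ratios. Different clusters held most spinous and granular cells at 0h and 4h, with 1141 of 1351 spinous cells in cluster 9 at 0h but 2 of 213 at 4h, when 136 were in cluster 31, which had 0 cells at 0h. Granular cells were mostly in cluster 10 at 0h, 282 of 367, and mostly in cluster 28 at 4h, 27 of 45. Spinous cells also held 15891 UMIs per cell at 0h and 30942 at 4h, and the part of clusters and depth in these ratios was not tested. Melanocytes, with 27 cells at 0h and 89 at 4h, were at 4258 CPM at 0h, 5650.3 after 4h, 5451 after 16h, 7893 after 2d, 5333 after 4d and 5245 after 6d. Their highest level, 1.85-fold (1.63 to 2.11), came at 2d rather than at 4h.

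Cell by cell, the difference was a shift of most cells rather than a few. Every cell was reduced to a random draw of 2000 of its UMIs to make depth equal, and the UMIs of the 44 factors were summed; shallower cells were left out, 2 to 74 of a library in OB cells. The median OB cell held 5 UMIs of the factors at 0h, 18 after 4h, 12 after 16h, 9 after 2d and 4d and 6 after 6d. The 90th percentile of 0h OB cells was 9 UMIs, and 90.2% of 4h cells, 62.9% of 16h cells, 46.7% of 2d cells, 49.1% of 4d cells and 18.8% of 6d cells were above it. In IFE basal cells the medians were 7, 24, 7, 6, 6 and 7, with 97.5% of 4h cells and 14.7% of 16h cells above the same mark of 0h. In uHF cells they were 9, 21, 10, 7, 9 and 9, with 72.6% at 4h. T cells had medians of 5 to 6, with 3.69% of 4h cells above the mark, but far more of them were left out as too shallow, 34 to 399 of a library and 147 of 391 at 4h. Without thinning the medians were 14, 39, 41, 28, 26 and 16 UMIs in OB cells.

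**Figure D4:**
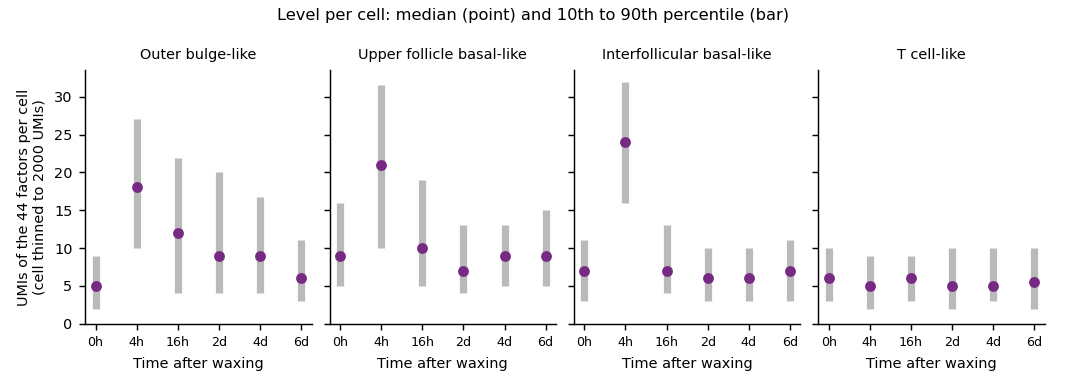
UMIs of the 44 factors per cell after thinning every cell to 2000 UMIs, as the median (point) and the 10th to 90th percentile (bar) over the cells of each library, for OB, uHF and IFE basal cells and T cells. In OB and IFE basal cells the 4h bars start at 10 and 16 UMIs, above the 0h bars that end at 9 and 11, whereas in uHF cells the bars overlap; the T cell medians stay between 5 and 6.

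Few of the 4h cells were in cycle. A cell was called cycling when it held at least 2 UMIs of 10 markers of cycling cells, most of them mitotic, after thinning. In OB cells 9.35% were cycling at 0h, 1.76% after 4h, 11.4% after 16h, 42.2% after 2d, 47.2% after 4d and 26.1% after 6d. IFE basal cells showed 21.5%, 8.23%, 32.8%, 29.2%, 30.2% and 26.8%. The factors were thus highest in the library with the lowest share of cycling cells in both classes, and in OB cells their median was 12 UMIs at 16h and 9 at 2d while that share went from 11.4% to 42.2%. Taken alone, non-cycling OB cells had a median of 18 UMIs at 4h against 5 at 0h.

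Cycling and non-cycling cells of the same class were then compared over the 6 libraries, with the library as a block, by edgeR's quasi-likelihood test on summed UMIs with Benjamini-Hochberg adjustment over all genes. In OB cells 6 factors were higher in cycling cells and 0 lower, against 9.86% of all genes called higher and 9.91% called lower. Dkc1 had a log2 difference of 0.68 (SE 0.15, adjusted p = 7.99e-04) and was higher in 6 of 6 libraries, Noc4l 0.67 (SE 0.18, adjusted p = 0.00437) in 5 of 6 and Nolc1 0.62 (SE 0.15, adjusted p = 0.00136) in 6 of 6. Rrp1b, Utp18 and Nhp2 followed with 0.56, 0.54 and 0.52. The median over the 44 was 0.15, against -0.04 over all genes. By the fit without the library block 0 factors passed, and 1 passed when cells were not thinned before their state was set, in OB cells. Shares of all genes for these alternatives are not given.

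In the other basal classes most factors leaned the other way. In uHF cells 1 factor, Dkc1, was higher in cycling cells, against 13.6% of all genes, and 14 were lower, against 17.7%. In IFE basal cells it was again Dkc1 alone that was higher, against 17.5%, and 19 were lower, against 26.5%. Tsr1 and Nob1, which act on the pre-40S particle in the cytoplasm, were the lowest in IFE basal cells, at -0.53 (SE 0.07, adjusted p = 1.02e-05) and -0.50 (SE 0.07, adjusted p = 1.78e-05), each lower in 6 of 6 libraries. In these 2 classes the lower calls were a larger share of the 44 than of all genes tested and the higher calls a smaller one. Without the block 0 factors passed in either, and without thinning 1 passed in uHF cells and 2 in IFE basal cells. For these alternatives the shares of all genes are not given either. The median log2 difference was -0.14 in uHF cells and -0.17 in IFE basal cells, against -0.06 and -0.07 over all genes. Cycling cells were deeper than non-cycling ones in most libraries, for example 13988 and 10294.5 UMIs at the median in IFE basal cells at 16h, and the part of this in the result was not tested.

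The difference between classes was tested as an interaction of class and cycling state, added after the data were seen. Between OB and IFE basal cells 11 factors passed, each with the larger cycling difference in OB cells, against 1.84% of all genes called in that direction, and the sign was the same for 44 of 44. The difference of log2 differences was 0.80 (SE 0.15, adjusted p = 0.00147) for Nolc1, 0.58 (SE 0.13, adjusted p = 0.00863) for Gnl3 and 0.86 (SE 0.21, adjusted p = 0.017) for Rrp1b by the same edgeR test. Fbl, Dkc1, Nhp2, Wdr43, Noc4l, Rrp12, Nob1 and Nip7 made up the rest. The median over the factors was 0.42, against 0.05 over all genes. Between OB and uHF cells 1 factor passed, Rrp1b, at 0.67 (SE 0.17, adjusted p = 0.0419), against 0.292% of all genes, with 44 of 44 of the same sign. The share of all genes of that sign is not given for either pair. Levels of the factors were correlated (median Pearson correlation of each with the others 0.73), so the like signs are not 44 separate results. The counts of factors that passed rested on the libraries taken. The OB and IFE basal count was 4 without 0h, 9 without 4h, 14 without 16h, 2 without 2d, 2 without 4d and 2 without 6d. It was 0 when cells were not thinned. Shares of all genes for these alternatives are not given. Only 10 OB cells were cycling at 4h.

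**Figure D5:**
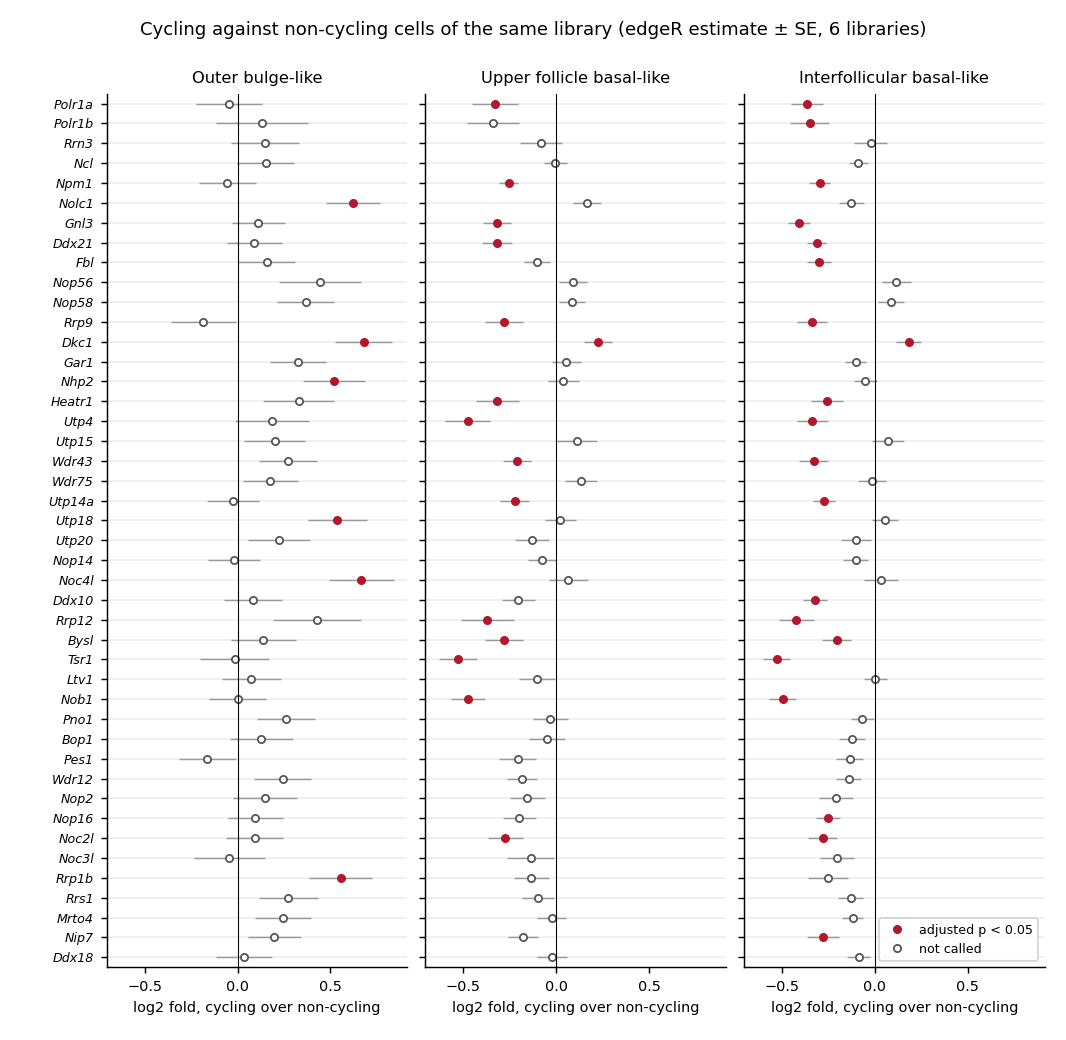
Log2 difference of each of the 44 factors between cycling and non-cycling cells of the same library (edgeR estimate with its SE over 6 libraries, library as a block) in OB, uHF and IFE basal cells; filled points pass the adjusted p threshold of 0.05. In OB cells 36 of 44 factors lie above 0 and 6 pass, in IFE basal cells 7 lie above 0 and 20 pass, 19 of them below 0.

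A smooth change over the whole course was not called with hours as the scale. A spline of hours with 3 degrees of freedom over 6 libraries (edgeR, Benjamini-Hochberg adjustment) called 0 of 44 factors in OB cells, 0 in uHF cells and 0 in IFE basal cells, against 0% of all genes in each class. At an unadjusted p under 0.05, 0, 1 and 0 factors and 983, 223 and 71 genes passed. DESeq2 called 0 factors in each class. On a scale of log2(hours + 1), which spreads the early libraries, the same test called 34 of 44 factors in OB cells, against 17.5% of all genes, and 0 in uHF and 0 in IFE basal cells, against 0% of all genes in both. With hours as the scale, OB cells without the 0h library gave 38. The share of all genes for that fit is not given, so this count cannot be read as a result about the factors. The fit to 6 libraries left 2 residual degrees of freedom, and fits with a library left out had fewer.

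A wider list of 133 other factors of ribosome biogenesis was also highest at 4h, with smaller ratios. In OB cells 96 of the 131 tested were at least 2-fold higher at 4h against 16% of all genes, and 1 at least 2-fold lower, against 20.7%, with a median log2 ratio of 1.43. At 16h 66 were at least 2-fold higher, against 16%, with a median of 1.02. In IFE basal cells 98 of 131 were at least 2-fold higher at 4h, against 16.7% of all genes, and 3 at 16h, a smaller share than the 4.44% of all genes. The highest at 16h in OB cells were Aen, a nucleolar exonuclease, with 5.98 CPM at 0h, 86.7 after 4h, 52.5 after 16h, 26.7 after 2d, 28.9 after 4d and 19.7 after 6d, and Nle1, Shq1, Nat10 and Mybbp1a at log2 ratios of 2.22 to 2.81. The lowest were Nop53, 248 CPM at 0h, 139 after 4h, 152 after 16h, 176 after 2d, 146 after 4d and 160.2 after 6d, Nsa2, Rbm34, Taf1b and Ddx47. Nop53 and Nsa2, both 60S factors, were lower at 4h than at 0h. Transcripts of the ribosomal proteins, which the factors assemble with ribosomal RNA, did not run with the factors. The ribosomal protein genes together took 25.1% of OB UMIs at 0h, 18.1% at 4h and 24.2% at 16h, and 28.5%, 21.0% and 24.8% in IFE basal cells. Ribosomal RNA and finished subunits were not measured.

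RNA polymerase III, which makes 5S rRNA and transfer RNAs, was represented by 14 genes, of which 5 were at least 2-fold higher at 4h in OB cells, against 16% of all genes. Another 3 were at least 2-fold lower, a share near the 20.7% of all genes. The subunit gene Polr3e was at 4.6 CPM at 0h, 21.4 after 4h, 14.3 after 16h, 10.7 after 2d, 10.6 after 4d and 7.08 after 6d, and Polr3d, Polr3g and the TFIIIB gene Bdp1 were also at least 2-fold higher at 4h. Maf1, the repressor of this polymerase, went the other way, with 57.1 CPM at 0h, 15.1 after 4h, 32.9 after 16h, 24.2 after 2d, 32.5 after 4d and 36.8 after 6d. Its 4h level was the lowest of the 6 libraries. The list sum was 1.44-fold at 4h and 1.30-fold at 16h, well under that of the 44 factors.

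MYC is a transcription factor known to drive ribosome biogenesis genes through the E-box CACGTG. Only its transcript was measured here, not MYC protein or activity, and a part of MYC in the levels of the factors was not tested. Myc was at 161 CPM at 0h, 118 after 4h, 87.7 after 16h, 61.3 after 2d, 20.9 after 4d and 94.4 after 6d in OB cells, and at 233 CPM at 0h, 64.9 after 4h and 98.7 after 16h in IFE basal cells. None of the 11 genes of the MYC network tested in OB cells was at least 2-fold higher at 4h, where 16% of all genes were, and 4 were at least 2-fold lower, where 20.7% of all genes were. Beside Mycn and Mxd3, of which few UMIs were counted at 0h and 4h, these were the MYC antagonists Mxd4, 165 CPM at 0h, 41.4 after 4h, 79.4 after 16h, 72.9 after 2d, 68.4 after 4d and 101 after 6d, and Mxi1, 67.7 CPM at 0h, 11.9 after 4h, 26.7 after 16h, 30.2 after 2d, 23.6 after 4d and 30.7 after 6d. Both antagonists were lowest at 4h in OB cells. In IFE basal cells 2 of 11 network genes tested were at least 2-fold higher at 4h, against 16.7% of all genes, and 7 at least 2-fold lower, against 18.6%. In uHF cells 1 of 11 was higher, against 18.9%, and 5 were lower, against 18.1%. Immediate early and heat shock genes, which respond to tissue dissociation as well as to injury, took 34111 CPM of OB UMIs at 0h and 16442 CPM at 4h, so they were higher in the reference library.

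The promoters were read for that E-box as a description of their sequence. RefSeq start sites on GRCm38.p6 were matched for 39 of the 44 (43 windows of 300 bases, 250 before and 50 after the start), and not for Npm1, Bop1, Fbl, Rrs1 and Rrp12. CACGTG, which reads the same on both strands, stood in 10 of 43 windows (23.3%), against 7.15% of all 32851 windows. The genes were Nop2, Utp4, Ltv1, Utp20, Pes1, Pno1, Tsr1, Utp18, Rrn3 and Wdr43, so that genes with a large OB ratio at 4h (Nop2) and with small ones (Pes1, Rrn3) both carry it. A match is a run of letters and not a measured binding site. Only in Nop2, Utp18 and Rrn3 did an E-box lie wholly before the start. In the other genes of the 10 it overlapped or lay after the start. The bases upstream of the start are printed for Nop2, Utp18 and Rrn3, 5′ to 3′ on the gene's own strand, with the E-box in capitals. Nop2 had a log2 ratio of 3.49 at 4h in OB cells, Utp18 of 2.03 and Rrn3 of 1.08.
Nop2, chr6:125131763-125131882, plus strand: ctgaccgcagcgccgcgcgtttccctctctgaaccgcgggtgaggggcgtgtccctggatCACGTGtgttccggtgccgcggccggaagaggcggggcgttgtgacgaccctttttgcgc
Utp18, chr11:93885767-93885846, minus strand: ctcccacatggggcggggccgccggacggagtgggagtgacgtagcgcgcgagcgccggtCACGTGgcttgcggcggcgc
Rrn3, chr16:13780591-13780698, plus strand: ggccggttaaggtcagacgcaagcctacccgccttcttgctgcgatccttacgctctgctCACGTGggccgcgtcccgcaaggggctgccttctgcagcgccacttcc
The E-box begins 60 bases before the start in Nop2, 20 in Utp18 and 48 in Rrn3, whose window holds 2 of them.

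Over the 76 sums of class and library with enough cells, the level of each factor was compared with the summed level of the others. The Pearson correlations of the factors ranged from 0.37 to 0.92 with a median of 0.73, and 21 of the 100 genes most like the sum, of 10371, were factors themselves. Among other genes the most like were Cct5, Cct8, Cct6a and Cct3, subunits of the chaperonin that folds actin and tubulin, with 0.93 for Cct5, the translation termination factor Gspt1, and the nucleolar genes Rsl1d1, Mybbp1a, Lyar, Rrp15 and Ppan. The sums share libraries and cells of related classes, so these values are a description with no test.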

How the data were processed

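The authors deposited raw UMI counts per gene and cell barcode for 6 libraries of dorsal skin cells (10x Genomics 3′ kit; Cell Ranger 6.1.2 and genome build mm10 per the submitters' processing notes). The counts are whole numbers, not normalized, and the deposited barcodes had been filtered before. Reads that match a gene and its pseudogene alike may be lost from counts.

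Cells with 500 to 7000 genes and at most 10% mitochondrial UMIs were kept, and doublets were removed by a score against simulated doublets (4675 removed). Clustering used 2000 variable genes without the 44 factors, the listed genes and genes that follow the cell cycle, 30 components, 20 neighbours and the Leiden algorithm (leidenalg 0.10.2; Python 3.11.15, numpy 2.4.6, scikit-learn 1.9.0), and classes were named from marker lists where at least 3 markers were up. UMIs were summed per class and library (at least 20 cells) and divided by the class total to CPM. Genes with a mean of at least 5 CPM over the 6 libraries were compared by ratio, with exact 95% Poisson and binomial intervals (scipy 1.17.1); these cover counting error only. Cycling states (at least 10 cells each) and the time course were fitted with edgeR 4.0.16 (R 4.3.3; TMM, filterByExpr, robust quasi-likelihood test, library block, adjusted p of 0.05), with DESeq2 1.42.0 as an alternative; the fits were tested on simulated data. With 1 library per time point no ratio has a replicate check, and the spread the tests see is that between libraries.

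The 44 factors, the lists and the tests were chosen with earlier results of these data known. By rule, Heatr1, Ncl and the factors with the largest and smallest OB ratio of each role are given in full, with the 5 highest and 5 lowest of the other factors at 16h and the 10 genes most like the sum; any factor may be named. Alternatives were other scalings, filters, clusterings, seeds, thresholds and tools, and each library left out. Symbols of 3 listed genes were not found.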

Additional observations from a re-analysis of the deposited data

Results flagged for a closer look

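In T cells the summed factors at 4h were 0.801 of the 0h level and in Langerhans cells 0.832, against 3.31-fold in IFE basal cells of the same libraries; each is a ratio of 2 libraries, and the difference between the classes was not tested. The median log2 ratio of the single factors was above 0 in both immune classes, at 0.26 and 0.62, while none of the 5 abundant nucleolar proteins was above 0h in either.

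The difference between cycling and non-cycling cells itself differed between classes by edgeR's test of the interaction, for 11 factors between OB and IFE basal cells and for 1 factor, Rrp1b, between OB and uHF cells. Over all genes, 1.84% and 0.292% were called in the same direction. Both counts of factors changed with the libraries left out.

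Clusters 22 and 23 entered no comparison, since they held no cells at 0h, 4h or 16h. Cluster 22 is led by the hair keratins and sheath keratins Krt35, Krt28 and Krt25, and cluster 23 by Tagln and Prss35; both carried genes of other classes among their leading genes and were left unnamed. The summed factors stood at 7862 CPM in cluster 22 and 7189 CPM in cluster 23 at 4d, and at 6720 and 6493 CPM at 6d, above the 5347 and 3705 CPM of OB cells at the same times. Cluster 19, found almost only at 4h and led by Krt6b and Krt16, was at 10680 CPM.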

How the results depend on the processing

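No time point had a second library, so ratios between 2 libraries have no replicate error, and low factors at 0h (2 UMIs of Rrp12 in OB cells) limit them. Among alternative values of the counts, 163 stayed within 1.5 times the main value and 33 did not. Among those of the ratios of named factors and sums 268 stayed close to the main value, 60 moved and 2 changed sign. Those 2 were Ncl at 16h as mean UMIs per cell, with log2 ratios of 0.28 in uHF and 0.0906 in IFE basal cells. As mean UMIs per cell, factors at least 2-fold higher at 16h were 27 in uHF cells, against 43.7% of all genes, and 15 in IFE basal cells, against 15.8%. Over all cells 15 were, on the same scale. In IFE basal cells 1 was with totals without ribosomal protein and mitochondrial genes. It was also 1 after clustering centred within libraries, which was chosen after seeing the data. The last 3 counts are given without the share of all genes. Mean UMIs per cell moved the median of all genes in OB cells from -0.03 to -0.31 at 4h and from 0.20 to 0.62 at 16h. The time course in OB cells called 34 factors on log2(hours + 1), against 17.5% of all genes, and 1 on the rank of the time point. With 1 library left out it called 0 to 38, from fits with fewer residual degrees of freedom. Shares of all genes for the rank and for left-out libraries are not given. For cycling against non-cycling cells, the fit with no library block called 0 factors in each of the 3 classes, and since the labels give no replicate numbers the library itself was the only pairing. Cells not thinned gave 1 factor in OB, 1 in uHF and 2 in IFE basal cells, doubled resolution 3 in OB, and DESeq2 7 in uHF cells. With 1 library left out the counts were 3 to 10 in OB, 9 to 15 in uHF and 17 to 22 in IFE basal cells. Shares of all genes are not given for these alternative settings, nor for those of the interaction that follow. These counts cannot be read as results about the factors alone. The interaction of OB and IFE basal cells called 2 to 14 factors with 1 library left out and 0 without thinning, and that of OB and uHF cells 0 to 2 and 0; these were added after seeing the data. The cause of these changes was not tested.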

Other observations

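Sebaceous gland cells, which the comparisons above do not use, held 9054 CPM of the summed factors at 4h, 6929 after 16h, 4247 after 2d, 4354 after 4d and 4349 after 6d, and had too few cells for a sum at 0h. Of the 244 cells at 4h, 179 were in cluster 30, led by Krt18 and Krt8, with none of the gland's markers among its 10 leading genes and 1 cell in all other libraries, so the 4h level comes mostly from a cluster almost absent later. Cluster 17, led by Wfdc3, Fgf18 and Sncg, was present in all 6 libraries and is left unnamed, since its leading genes held more markers of another class than of its own. It was at 2792 CPM at 0h, 7921 after 4h, 4285 after 16h, 3261 after 2d, 3119 after 4d and 3072 after 6d, so its 4h level was the highest and the later ones were above 0h by less.

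Within the OB class, the 2d cells that were cycling held a median of 13 UMIs of the factors after thinning and the non-cycling cells 7, the widest such gap of the 6 libraries. At 16h both held 12.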
